A study of Mus musculus with 22 samples.

Results

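The 8 genes described here were *Hmgcs1*, *Idi1*, *Fdps*, *Fdft1*, *Sqle*, *Lss* and *Cyp51*, which encode enzymes of cholesterol synthesis, and *Insig1*, which encodes a regulator of that synthesis. They are taken by name, as a set chosen with earlier results of these data known, and make up 8 of the 24454 gene symbols in the count table. The expression of the 8 genes was followed across 4 populations of cells sorted from the aorta-gonad-mesonephros (AGM), the region of the embryo in which endothelial cells turn into blood cells. All cells came from untreated C57BL/6 mouse embryos, and all were sorted as positive for VE-Cadherin, an adhesion protein of endothelial cells. The populations were then separated by the surface proteins CD44 and Kit. The labels call CD44Neg endothelial cells (10 libraries, 4 from E9.5, 3 from E10 and 3 from E11), CD44LowKitNeg hemogenic endothelial cells (6 libraries, 1, 2 and 3), CD44LowKitPos Pre-HSPC (3 libraries, 1 from E9.5 and 2 from E10) and CD44High HSPC (3 libraries, all from E11), where HSPC stands for haematopoietic stem and progenitor cell. The label date changed with the stage, so the stage and the date cannot be told apart, and no stage held both CD44LowKitPos and CD44High. The titles of all CD44LowKitPos and CD44High libraries, and of no others, carry the prefix KG, whose meaning is not given in the sources used here. Whatever it marks cannot be told apart from the population where either is compared with CD44Neg or CD44LowKitNeg.

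Cholesterol is made from acetyl-CoA in the endoplasmic reticulum. The mevalonate arm makes isoprenoid units, squalene is built from these and closed into lanosterol, and a series of oxidations and reductions then turns lanosterol into cholesterol. Most enzymes of the pathway are transcribed under the factor SREBP-2, which is held in the endoplasmic reticulum by INSIG proteins when sterols are abundant and released when they are scarce. Cells can also take up cholesterol with lipoproteins, through lipoprotein receptors, and dividing cells need it for new membrane.

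Each library was made from 25 cells, and 3912350 to 8657546 reads were counted per library. For 20 pairs of replicates from 1 population and stage, a chi-square test of their counts gave 17 to 85.2 per degree of freedom, so replicates differed by more than counting error. The labels do not say which libraries shared embryos or litters, and the p-values measure the spread between these libraries, which may be technical in part. Levels are given as normalized CPM, counts scaled to the TMM library size, as mean ± SD over libraries. All populations were sorted on VE-Cadherin, yet its gene *Cdh5* had a count of 0 in all 3 CD44High libraries. The 8 endothelial markers summed to 14.3 to 78.8 normalized CPM there against 3519 to 5924 in CD44Neg, and the 8 macrophage markers summed to 3270 to 4902 against 0 to 12.5. Summed erythroid markers were at 48.2 to 255 in CD44High and 2.61 to 23.7 in CD44Neg, and mesenchymal markers at 0.272 to 345 and 0 to 27.2. The macrophage genes *Adgre1*, *C1qa*, *C1qb* and *C1qc* were at 0 in the other 3 populations. The sum of the 8 macrophage markers was nevertheless 164 to 222 in CD44LowKitPos, most of it *Lyz2* (mean 183), and 0 to 57.8 in CD44LowKitNeg. In bulk libraries a lower level cannot be assigned to fewer cells that express a gene or to less RNA per cell.

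On mm10, *Hmgcs1* lies on the plus strand of chromosome 13 (119690379 to 119708260) and *Idi1* on the same strand and chromosome (8885501 to 8892451). *Fdps* lies on the minus strand of chromosome 3 (89093588 to 89101959), *Fdft1* on the minus strand of chromosome 14 (63145150 to 63179578), *Sqle* on the plus strand of chromosome 15 (59315077 to 59331192) and *Lss* on the plus strand of chromosome 10 (76531588 to 76557138). *Cyp51* (4081145 to 4104746, minus strand) and *Insig1* (28071363 to 28078662, plus strand) lie on chromosome 5. These positions come from GENCODE vM21, which may differ from the annotation used for counting. The annotated gene of *Fdft1* shares 774 bases with *Ctsb* on the opposite strand and that of *Cyp51* shares 166 bases with *Akap9*, and no strand setting is given in the sources used here, so reads from these bases cannot be told apart. *Fdps* shares 1124 bases with the protein-coding Gm43738 on the same strand and *Hmgcs1* shares 557 with Gm48342 on the opposite strand, and neither of these is in the count table. *Ctsb* was highest in CD44High (1902 ± 758 normalized CPM, n = 3), where *Fdft1* was lowest (42.8 ± 3.91). *Ctsb* was lowest in CD44LowKitPos (168 ± 7.57, n = 3), where *Fdft1* was nearly as low (45.5 ± 9.79). The part of the shared bases in the level of *Fdft1* was not tested. *Fdps*, *Fdft1*, *Idi1* and *Insig1* have processed pseudogenes with at least 90% identity over at least 100 bases, none of them in the count table, and how reads shared with them were counted is not given in the sources used here.

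RefSeq start windows were at hand for 5 of the 8 genes. Within the 250 bases before each start, on both strands, CACNCCAC, a form of the sterol regulatory element bound by SREBP, and CCAAT, bound by the factor NF-Y, were searched. CACNCCAC was present for *Hmgcs1* and *Insig1* and in 5.29% of the 32851 RefSeq windows of the same length. CCAAT was present for *Hmgcs1*, *Idi1*, *Lss*, *Cyp51* and *Insig1*, and in 33.8% of all windows. Of 20 cholesterol synthesis genes, the 16 with a window had 19 windows, of which 15 (78.9%) held CCAAT and 2 held CACNCCAC. The window of *Hmgcs1* (chr13:119690101-119690350) is shown because this gene gave the largest fall among the 8 and carries both motifs, and those of *Lss* (chr10:76531355-76531587) and *Insig1* (chr5:28071162-28071362) are shown for comparison, as genes that were called in no comparison. All are on GRCm38 and the plus strand. The capitals mark CACNCCAC and CCAAT, which reads ATTGG on the other strand, and the windows of *Lss* and *Insig1* stop before the start of the GENCODE transcript.
Hmgcs1: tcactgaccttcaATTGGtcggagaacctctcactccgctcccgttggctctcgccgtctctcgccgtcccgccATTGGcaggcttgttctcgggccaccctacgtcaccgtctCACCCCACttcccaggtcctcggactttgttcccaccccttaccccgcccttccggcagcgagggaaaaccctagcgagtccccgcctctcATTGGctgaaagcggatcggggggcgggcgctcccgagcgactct
Lss: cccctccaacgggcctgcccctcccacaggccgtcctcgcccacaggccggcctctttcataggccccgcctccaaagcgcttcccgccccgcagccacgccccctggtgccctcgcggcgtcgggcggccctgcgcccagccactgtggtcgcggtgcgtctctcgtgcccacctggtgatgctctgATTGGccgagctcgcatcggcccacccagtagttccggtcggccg
Insig1: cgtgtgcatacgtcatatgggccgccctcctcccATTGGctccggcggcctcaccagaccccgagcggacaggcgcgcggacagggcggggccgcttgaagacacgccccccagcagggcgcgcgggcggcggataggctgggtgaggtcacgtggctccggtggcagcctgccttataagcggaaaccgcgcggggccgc
The CACNCCAC match of *Hmgcs1* began at position -136 and its CCAAT matches at -237, -176 and -45, counted back from -1 at the base before the RefSeq start. That of *Lss* began at -62 and that of *Insig1* at -216. The CCAAT of *Cyp51* at -29 and those of *Idi1* at -45 and -14, none of them printed, and the CACNCCAC of *Insig1* at -9 lay inside the annotated GENCODE transcript, and no match overlapped another. A match says that the letters are there, not that a factor binds.

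Per length, as normalized CPM per kilobase of the transcript with the longest coding part and averaged over all 22 libraries, *Fdps* had the highest level of the 8 (112), followed by *Hmgcs1* (47.7), *Sqle* (35.5), *Cyp51* (26.1), *Fdft1* (23.4), *Insig1* (17.9), *Idi1* (15.1) and *Lss* (2.94). Neighbours in this order from *Hmgcs1* to *Idi1* differed by less than their SDs over the libraries, which were 24.9 for *Hmgcs1*, 16.7 for *Sqle* and 10.3 for *Idi1*. The order depends on the length chosen. This transcript of *Fdps* has 1.382 kilobases and all its annotated exons span 4.208, against 3.464 and 4.594 for *Hmgcs1*.

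The summed level of the 8 genes was lowest in CD44High. It was 875 ± 257 normalized CPM in CD44Neg (n = 10), 680 ± 214 in CD44LowKitNeg (n = 6), 579 ± 134 in CD44LowKitPos (n = 3) and 387 ± 99.9 in CD44High (n = 3). The lowest CD44Neg library (586) lay above the highest CD44High library (485), while the neighbouring populations overlapped. All 8 genes passed the filter on low counts in every comparison.

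**Figure D1:**
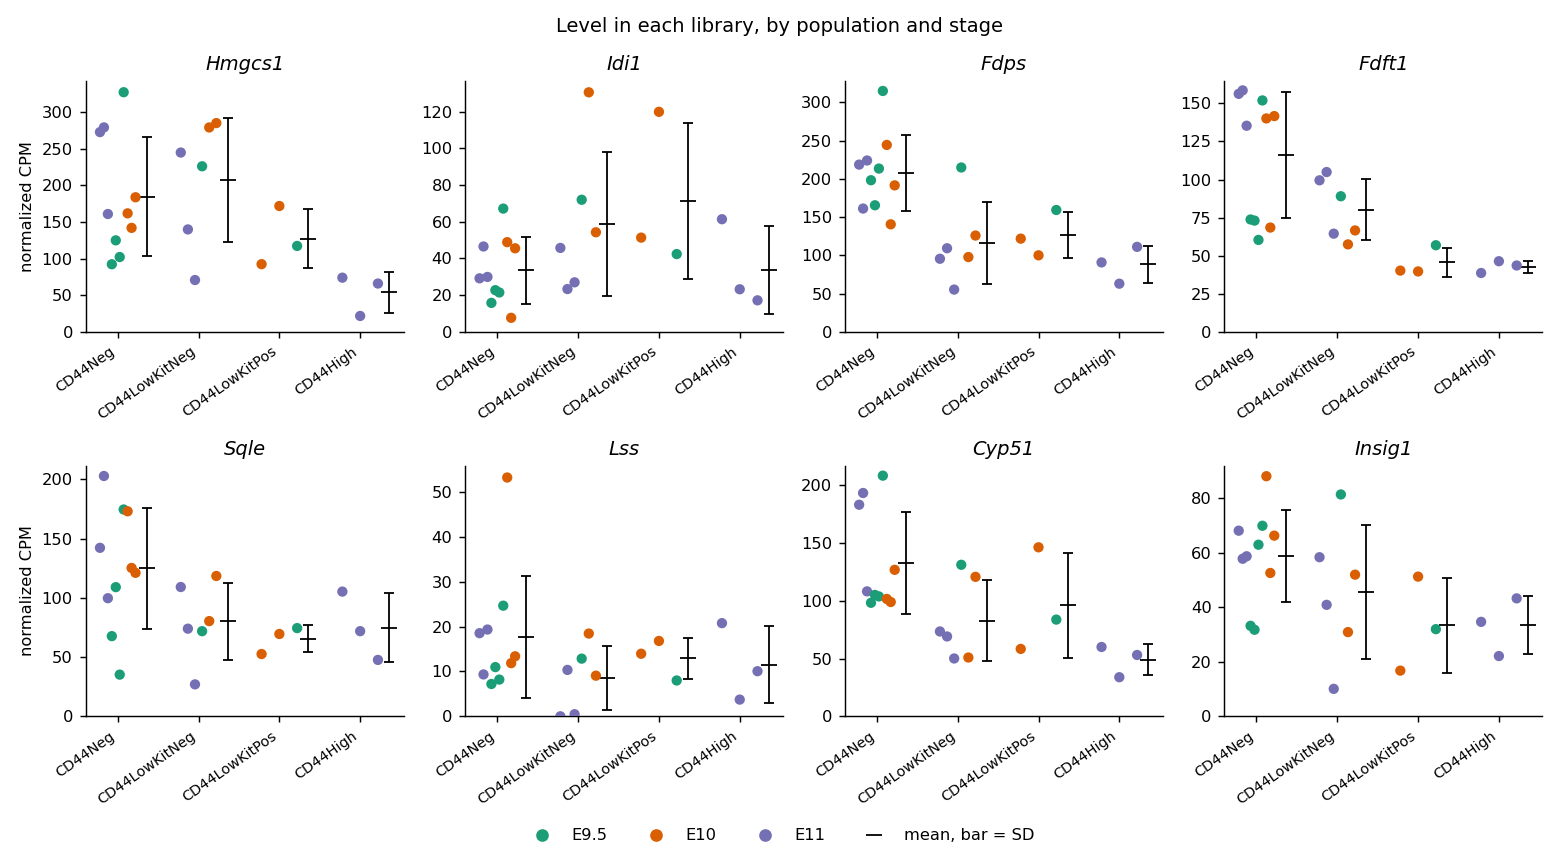
Normalized CPM of the 8 genes (vertical axis, from 0) in each library, by population (horizontal axis) and coloured by stage, with the mean and SD at the right of each population. The 3 CD44High libraries lie below all 10 CD44Neg libraries for *Hmgcs1*, *Fdps*, *Fdft1* and *Cyp51*, and the single high point of *Lss* is CD44Neg replicate 8 (53.3).

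Of the 8 genes, 4 fell in CD44High against CD44Neg and none rose, by edgeR's quasi-likelihood test at a Benjamini-Hochberg adjusted p under 0.01. Over all 12949 genes tested, 14.4% were called in either direction and 7.25% were called lower. The 4 genes were *Hmgcs1*, *Fdps*, *Fdft1* and *Cyp51*, so the fall touched the mevalonate arm, the step that makes squalene and the first step after lanosterol. For the same 4 genes the groups did not overlap, which was so for 9.12% of all genes in this direction. The median log2 fold change was -1.03 over the 8 genes and -0.02 over all genes tested. The macrophage, endothelial, erythroid, proliferation, blood and neural markers separated the same libraries. In CD44High and CD44Neg the proliferation markers summed to 2899 to 3378 and 1330 to 2808 normalized CPM, the blood markers to 1452 to 2593 and 557 to 1239, and the neural markers to 0.544 to 12.3 and 20.7 to 109. The blood sum of CD44Neg was almost all *Cd34*, which averaged 150 normalized CPM in CD44High against 1019 in CD44Neg, the opposite direction to *Ptprc* (415 against 0). Most of the neural sum of CD44Neg was *Stmn2*, at a mean of 53.6 against 2.55 in CD44High. Their part in the result was not tested. At E11 alone, 3 against 3 libraries, *Fdft1* and *Cyp51* were called where 8.47% of 11942 genes were, and 5 of the 8 genes lay below without overlap, against 19.9% of all genes. All 8 log2 fold changes were negative there.

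*Hmgcs1*, the synthase that makes HMG-CoA at the head of the mevalonate arm, was at 73.8, 21.6 and 65.8 normalized CPM in the CD44High libraries. In CD44Neg it ran from 92.1 over a median of 161 to 327, and in CD44LowKitNeg from 70.6 over 235 to 285. The CD44LowKitPos libraries had 92.3, 172 and 117. CD44High was thus below every CD44Neg and CD44LowKitPos library and met only the lowest CD44LowKitNeg library. The log2 fold change of CD44High was -1.78 against CD44Neg (SE 0.46, adjusted p = 0.00575 from edgeR) and -1.95 against CD44LowKitNeg (SE 0.48, adjusted p = 0.00388). The latter was the only call among the 8 genes in that comparison, in which 16% of all genes were called (8.17% lower), while 5 of 35 alternative settings lost it. Within E11 the same difference was -1.60 (adjusted p = 0.0407). Against CD44LowKitPos the log2 fold change was -1.24 (SE 0.51, adjusted p = 0.184). The ranges of CD44LowKitNeg (207 ± 85.0), CD44Neg (185 ± 80.8) and CD44LowKitPos (127 ± 40.6) overlapped with each other.

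*Idi1*, the isomerase that turns isopentenyl into dimethylallyl diphosphate, was at 61.4, 23.2 and 17.1 normalized CPM in CD44High and from 7.61 over a median of 29.5 to 67.2 in CD44Neg. The CD44LowKitPos libraries had 51.3, 120 and 42.4, and CD44LowKitNeg ran from 23.3 over 49.98 to 131. All 4 populations overlapped. Its log2 fold change was 0.02 in CD44High against CD44Neg (SE 0.54, adjusted p = 0.986), 0.82 in CD44LowKitNeg against CD44Neg (SE 0.40, adjusted p = 0.168) and 1.09 in CD44LowKitPos against CD44Neg (SE 0.51, adjusted p = 0.225). In CD44High it was -1.07 against CD44LowKitPos (SE 0.68, adjusted p = 0.451) and -0.79 against CD44LowKitNeg (SE 0.60, adjusted p = 0.355), and none of these was called. Across libraries, *Idi1* also had the lowest correlations with other members, given with the pairwise values.

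*Fdps*, the synthase of farnesyl diphosphate, the last common precursor of sterols and prenylated proteins, was at 90.7, 62.8 and 111 normalized CPM in CD44High. In CD44Neg it ran from 140 over a median of 206 to 315. These groups did not overlap, and the log2 difference was -1.23 (SE 0.31, adjusted p = 0.00539). CD44LowKitNeg ran from 55.1 over 103 to 215, and its log2 fold change against CD44Neg was -0.83 (SE 0.23, adjusted p = 0.0161), the smallest adjusted p of the 8 genes in that comparison. Of the 6 CD44LowKitNeg libraries, 5 lay below every CD44Neg library, and the E9.5 library (replicate 14, 215) was above the CD44Neg median. Without replicate 14, *Fdps* was called. CD44LowKitPos (122, 99.9 and 159) overlapped with CD44LowKitNeg and CD44High.

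*Fdft1*, squalene synthase, was low in both CD44LowKitPos and CD44High. It ran from 60.3 over a median of 138 to 159 normalized CPM in CD44Neg and from 57.4 over 77.8 to 105 in CD44LowKitNeg. It was at 40.2, 39.6 and 56.8 in CD44LowKitPos and at 38.6, 46.3 and 43.5 in CD44High. Both of the last populations lay below every library of the first 2 (the highest CD44LowKitPos library, 56.8, only just below the lowest CD44LowKitNeg library, 57.4), and they overlapped with each other. The log2 fold change against CD44Neg was -1.44 in CD44High (SE 0.33, adjusted p = 0.00216) and -1.35 in CD44LowKitPos (SE 0.33, adjusted p = 0.0106), which missed the threshold. In CD44High against CD44LowKitNeg it was -0.91 (SE 0.34, adjusted p = 0.0471) over all libraries, without overlap, as for 11.7% of all genes in this direction, and -1.18 (SE 0.27, adjusted p = 0.00845) at E11 alone, where it was the call among the 8 genes and 15.5% of all genes were called.

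*Sqle*, the monooxygenase that oxidizes squalene, ran from 35.2 over a median of 123 to 203 normalized CPM in CD44Neg and from 27.0 over 77.2 to 118.5 in CD44LowKitNeg. It was at 52.6, 69.5 and 74.5 in CD44LowKitPos and at 105, 71.9 and 47.6 in CD44High. All populations overlapped and none of its 6 population differences was called, the nearest to the threshold being CD44LowKitNeg against CD44Neg (-0.64, SE 0.32, adjusted p = 0.183). *Lss*, which closes oxidized squalene into lanosterol, was the scarcest gene. It ran from 7.20 over 12.6 to 53.3 in CD44Neg, was at 0 in CD44LowKitNeg replicate 11, where a count of 0 allows up to 0.403 normalized CPM, and was at 20.8, 3.73 and 10.1 in CD44High. Counts of *Lss* under 10 occurred in 2 libraries, its SEs between populations ran up to 1.09 on the log2 scale, and none of its differences was called.

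*Cyp51*, the demethylase that takes lanosterol into the last part of the pathway, was at 59.98, 33.8 and 53.1 normalized CPM in CD44High. It ran from 98.2 over a median of 107 to 208 in CD44Neg and from 50.03 over 71.2 to 131 in CD44LowKitNeg. CD44High was below all CD44Neg libraries and overlapped with CD44LowKitNeg and with CD44LowKitPos (58.3, 146 and 83.7). The log2 fold change against CD44Neg was -1.44 (SE 0.37, adjusted p = 0.00535) and was -1.77 at E11 alone (SE 0.34, adjusted p = 0.00499). *Insig1*, the sterol-dependent anchor of SREBP processing and itself an SREBP target, ran from 31.7 over 60.8 to 88.1 in CD44Neg and from 10.1 over 46.4 to 81.4 in CD44LowKitNeg. It was at 16.7, 51.2 and 32.0 in CD44LowKitPos and at 34.6, 22.1 and 43.3 in CD44High. The groups overlapped, and its log2 fold change in CD44High against CD44Neg was -0.82 (SE 0.44, adjusted p = 0.201).

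The calls in CD44High rested on 3 libraries. Leaving out 1 library at a time, 4 genes became 2 without CD44High replicate 20 (*Hmgcs1*, *Cyp51*), 1 without replicate 21 (*Fdft1*) and 1 without replicate 22 (*Fdps*), while the 4 log2 fold changes stayed negative in all 35 alternative settings. With stage as a covariate *Fdft1* alone was called, and limma voom called *Fdps* alone. The shares of all genes called in these settings are not given here. The summed level of the 8 genes was lowest in replicate 21 (285), against 485 in replicate 20 and 391 in replicate 22.

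**Figure D2:**
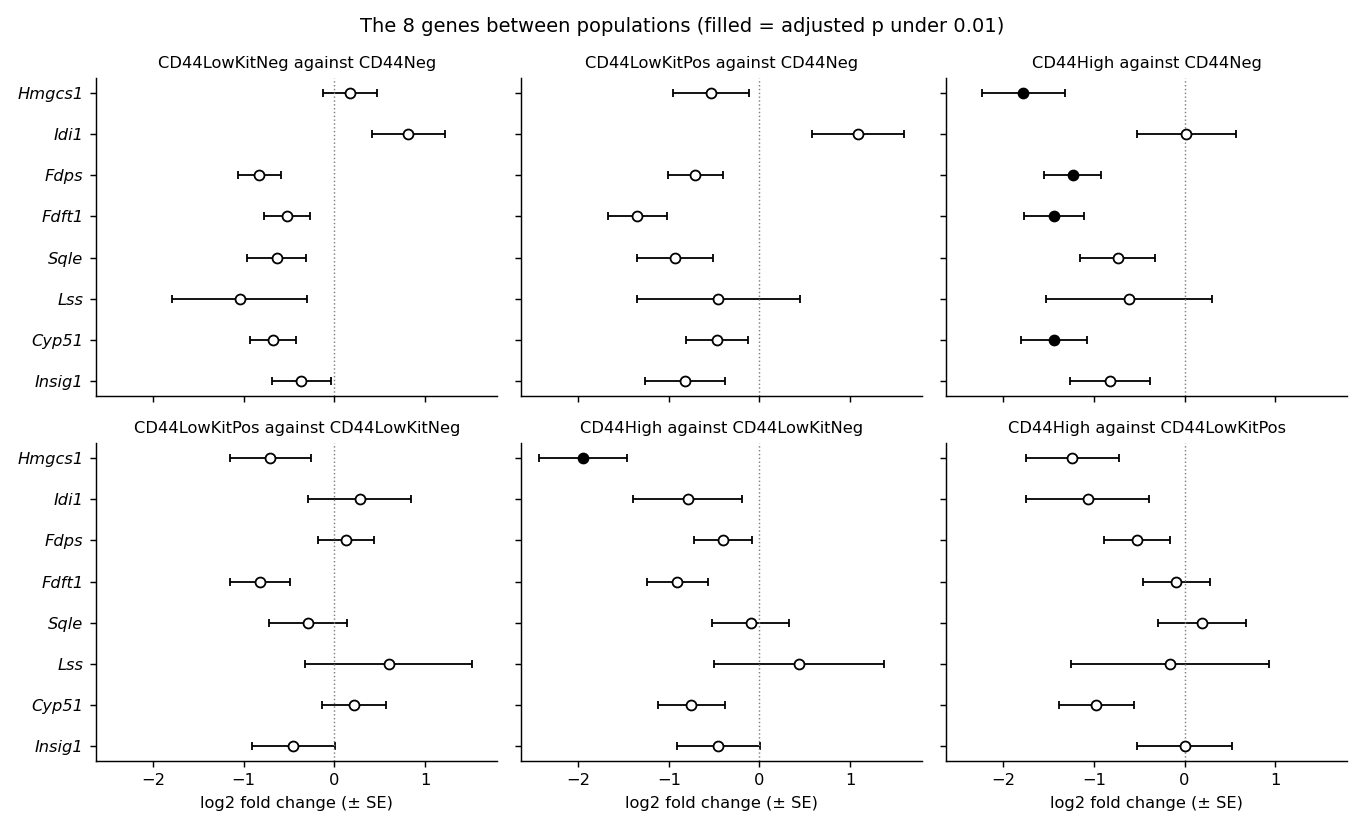
Log2 fold change of the 8 genes (horizontal axis, bars are SE from edgeR's quasi-likelihood fit) in the 6 comparisons of populations, with filled points for an adjusted p under 0.01. The filled points are *Hmgcs1* (-1.78), *Fdps* (-1.23), *Fdft1* (-1.44) and *Cyp51* (-1.44) in CD44High against CD44Neg and *Hmgcs1* (-1.95) in CD44High against CD44LowKitNeg.

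Between the endothelial populations, CD44LowKitNeg against CD44Neg, none of the 8 genes was called by edgeR, where 10.2% of 11022 genes were. At an unadjusted p under 0.05 there were 3 (*Fdps*, *Fdft1* and *Cyp51*, against 32.6% of all genes). DESeq2's Wald test and limma voom each called *Fdps*, and the shares of all genes that they called are not given here. The log2 fold change was negative for 6 of the 8, with a median of -0.58 over the 8 and 0.01 over all genes. At E11 alone all 8 were negative with a median of -0.86, 0 were called (1.06% of 11942 genes were) and 3 were at an unadjusted p under 0.05 (21.4% of all genes). The 3 CD44LowKitNeg libraries then lay below the 3 CD44Neg libraries for *Fdps* (86.6 ± 28.1 against 201 ± 34.8), *Fdft1* (89.6 ± 22.0 against 150.1 ± 12.8) and *Cyp51* (64.2 ± 12.4 against 161 ± 46.5), a separation that 18% of all genes showed. The proliferation markers summed to 489 to 782 normalized CPM in these CD44LowKitNeg libraries and to 1330 to 2677 in the CD44Neg libraries of E11. The CD44LowKitNeg libraries also lay wholly above for the endothelial (7230 to 8666 against 5662 to 5924), blood (1846 to 2073 against 953 to 1238), neural (242 to 689 against 81.6 to 109), mesenchymal (29.2 to 92.0 against 0.465 to 12.98) and erythroid markers (32.2 to 61.3 against 5.56 to 23.7). The blood and neural sums each rested mostly on 1 gene. Over all stages *Cd34*, which endothelial cells also express, averaged 1517 normalized CPM in CD44LowKitNeg and 1019 in CD44Neg, whereas the leukocyte marker *Ptprc* was at 0.0216 and 0. *Stmn2* averaged 296 and 53.6, while *Elavl3* and *Neurod1* were at 0 in every library of both populations. The part of these lists was not tested. At E10, with 2 against 3 libraries, 0 of the 8 were called (0.0169% of 11855 genes were). *Hmgcs1* was there above in CD44LowKitNeg (282 ± 4.22 against 162 ± 20.9, log2 fold change 0.87, SE 0.30, adjusted p = 0.171), *Idi1* likewise (1.51, SE 0.73, adjusted p = 0.296), and *Fdps*, *Fdft1*, *Sqle* and *Insig1* lay below, where 18.7% of all genes lay above and 19.9% below.

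The remaining steps between populations held no call among the 8 genes. In CD44LowKitPos against CD44LowKitNeg 4.26% of all genes were called, the 8 log2 fold changes ran from -0.82 (*Fdft1*) to 0.60 (*Lss*), and 1 was at an unadjusted p under 0.05, against 27.2% of all genes. *Fdft1* lay below without overlap, as did 7.35% of all genes. DESeq2's size factors moved the median of all genes to -0.16 in this comparison, from -0.02. In CD44High against CD44LowKitPos 3.01% were called, the values ran from -1.24 (*Hmgcs1*) to 0.19 (*Sqle*), and 2 were at an unadjusted p under 0.05, against 17.8% of all genes. *Hmgcs1* lay below without overlap, as did 12% of all genes. DESeq2 and limma voom called 0 of the 8 in both. In CD44LowKitPos against CD44Neg 3.48% were called by edgeR, 4 of the 8 genes were at an unadjusted p under 0.05 against 20.3% of all genes, and 1 lay below without overlap against 4.37%. There DESeq2 called 1 (*Fdft1*) and limma voom 0, and the shares of all genes that they called are not given here. The comparisons with CD44Neg share its 10 libraries and are not independent of each other.

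Between stages no call was made among the 8 genes. Within CD44Neg, none of the 8 genes was called in E11 against E9.5 (0.684% of 11250 genes were) or in E10 against E9.5 (0.0178%), by edgeR, DESeq2 or limma voom, and 1 (*Fdft1*) and 0 were at an unadjusted p under 0.05, against 17.1% and 15.2% of all genes. The gene at an unadjusted p under 0.05 in E11 against E9.5, *Fdft1*, was at 156, 159 and 135 normalized CPM in the E11 libraries and 73.8, 73.0, 60.3 and 152 in the E9.5 libraries (log2 fold change 0.76, SE 0.32, adjusted p = 0.230). In E9.5, 3 of 4 libraries were low and replicate 7 was high. Without replicate 7 the log2 fold change of *Fdft1* was 1.12 (adjusted p = 0.0576) and that of *Hmgcs1* went from 0.57 to 1.16 (adjusted p = 0.0323), neither of them called. Within CD44LowKitNeg, E11 against the earlier stages gave no call either (0.173% of 11010 genes), with 1 gene at an unadjusted p under 0.05 against 16.8% of all genes. This gene was *Idi1*, at 45.7, 23.3 and 27.0 at E11 and 72.0, 131 and 54.2 before (log2 fold change -1.38, SE 0.44, adjusted p = 0.146), and the stages did not overlap, as for 13.4% of all genes in this direction. Marker sums separated the same libraries, at E11 against before. They were 489 to 782 against 1264 to 3147 (proliferation), 7230 to 8666 against 3723 to 5004 (endothelial), 1846 to 2073 against 1051 to 1291 (blood, mostly *Cd34*) and 0 to 9.95 against 28.4 to 57.8 (macrophage). The mesenchymal and erythroid sums lay above at E11. The part of these lists was not tested in *Idi1*. The difference of the population effect between E11 and E10 was not called for any of the 8 genes (0.00806% of 12403 genes were called). It was largest in size for *Idi1* (-1.59, SE 0.87, adjusted p = 0.557), and *Hmgcs1* (-1.46, SE 0.53, adjusted p = 0.342) was the 1 gene at an unadjusted p under 0.05, as were 10.7% of all genes. DESeq2 and limma voom called 0 in these tests too.

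**Figure D3:**
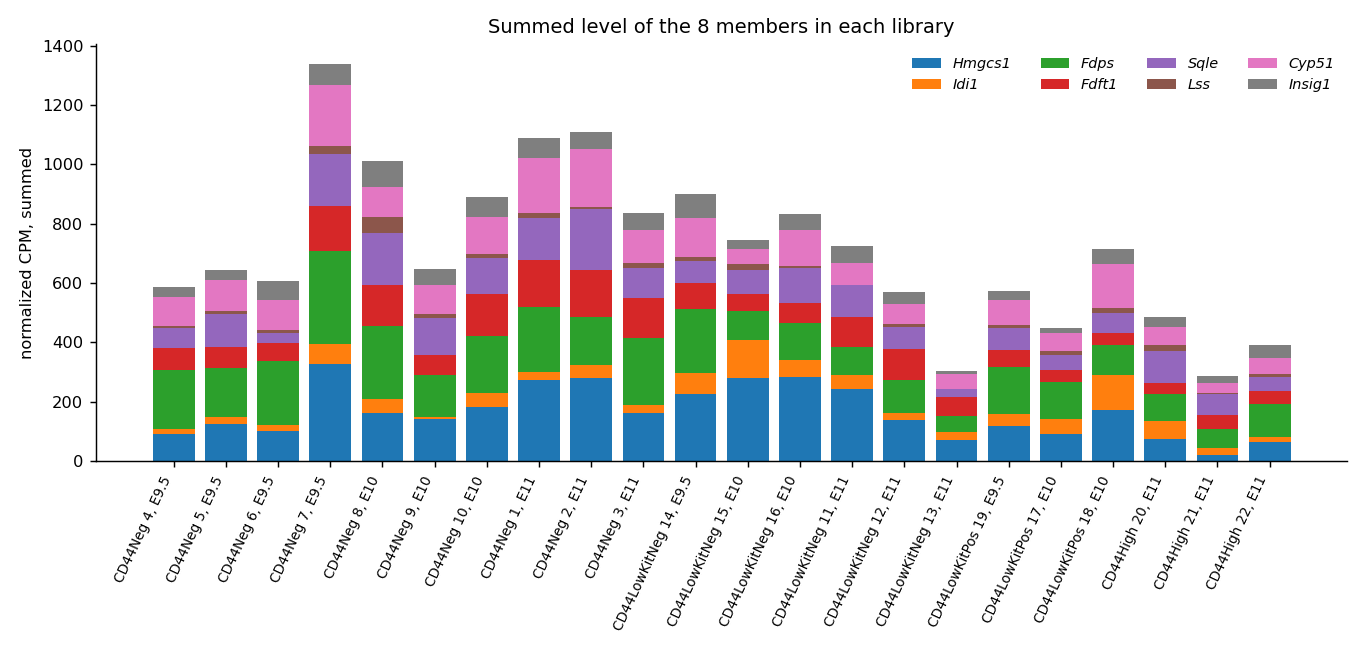
Summed normalized CPM of the 8 genes (vertical axis, from 0) in each of the 22 libraries, stacked by gene and ordered by population and stage. The highest bar is CD44Neg replicate 7 of E9.5 (1338), and the lowest are CD44High replicate 21 (285) and CD44LowKitNeg replicate 13 of E11 (305).

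The 8 genes varied together across the libraries to different degrees. Over the 22 libraries, Pearson's r between the log2 CPM of 2 genes ran from -0.02 (*Idi1* and *Fdft1*) to 0.76 (*Fdps* and *Cyp51*) over the 28 pairs, with a median of 0.55 and 15 pairs above 0.5. These points share library, depth and population, so r is a description. The genes outside the 8 whose log2 CPM was most like the mean of the 8 standardised genes were *Msmo1* (r = 0.83), which encodes the sterol oxidase after *Cyp51*, *Rap2a* (0.80), *Sh3bp4* (0.79), *Chn1* (0.79) and *Tubg2* (0.78). Among the synthesis genes that are not members, *Ebp* (-0.08), *Hsd17b7* (0.04), *Nsdhl* (0.05) and *Tm7sf2* (0.05), named after their values were seen, were least like it.

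Of 13 other synthesis genes, 2 fell in CD44High against CD44Neg and none rose, where 7.25% of all genes were called lower. Their median log2 fold change was -0.87, against -0.02 over all genes. *Mvd*, the decarboxylase of the mevalonate arm, fell from 44.3 ± 15.02 to 12.2 ± 3.18 (-1.86, SE 0.41, adjusted p = 0.00155), a call lost in 3 of 35 alternative settings, among them without CD44High replicate 20 (adjusted p = 0.0128). *Acat2*, the thiolase that opens the arm, fell from 118 ± 45.0 to 43.1 ± 7.80 (-1.45, SE 0.40, adjusted p = 0.00885), a call that 9 of the 22 fits without 1 library lost. Of 7 genes of the mevalonate arm 4 were thus called lower, of the 3 from squalene to lanosterol 1, and of the 10 from lanosterol to cholesterol 1. *Ebp*, a sterol isomerase late in the pathway, rose in CD44High against CD44LowKitNeg (80.9 ± 12.9 against 26.4 ± 8.72). Its log2 fold change there was 1.61 (SE 0.31, adjusted p = 3.9e-04 from edgeR), where 7.79% of all genes were called higher. This call was kept in all 35 alternative settings. Against CD44Neg, *Ebp* was not called in CD44High. Its normalized CPM per kilobase ran from 20.9 to 37.5 in CD44Neg, 10.3 to 22.8 in CD44LowKitNeg and 37.9 to 51.7 in CD44High. In CD44LowKitNeg against CD44Neg, 0 of the 13 were called by edgeR (10.2% of 11022 genes were), with a median log2 fold change of -0.52 against 0.01 over all genes.

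**Figure D4:**
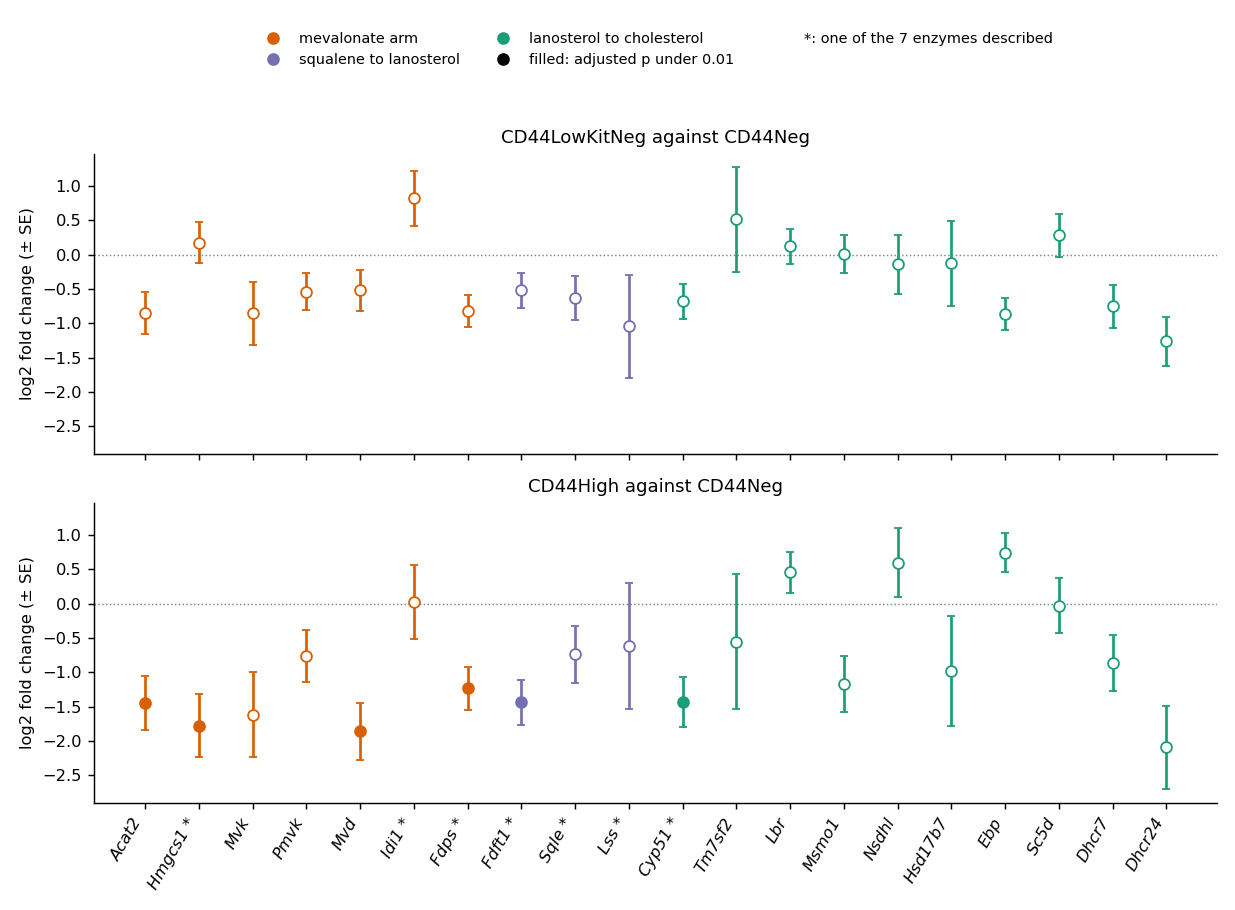
Log2 fold change (vertical axis, bars are SE) of 20 cholesterol synthesis genes in pathway order, for CD44LowKitNeg (top) and CD44High (bottom) against CD44Neg, with filled points for an adjusted p under 0.01. No point is filled in the top panel, and 6 are filled in the bottom panel, 4 of them in the mevalonate arm.

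Uptake, efflux and sterol sensing were read from the lists of the pathway. *Srebf2*, which encodes SREBP-2, was at 11.3 ± 7.28 in CD44High and 21.1 ± 11.4 in CD44Neg (-0.89, SE 0.60, adjusted p = 0.312) and was called in no comparison. Of the 7 sensing genes, *Insig1* included, 0 were called by edgeR in CD44LowKitNeg, CD44High or CD44LowKitPos against CD44Neg, where 10.2%, 14.4% and 3.48% of all genes were. Of 10 genes tested for lipoprotein uptake and lysosomal cholesterol, 2 fell in CD44High against CD44Neg (7.25% of all genes did), the lipoprotein receptors *Vldlr* and *Lrp8*. *Vldlr* had 2, 0 and 0 counts in the CD44High libraries against 12.4 ± 6.17 normalized CPM in CD44Neg (adjusted p = 2.21e-04), and *Lrp8* had 1, 1 and 0 counts against 12.2 ± 8.23 (adjusted p = 0.00905), a call lost in 18 of 34 alternative settings, 15 of them among the 22 fits without 1 library. *Vldlr* was also lower in CD44High than in CD44LowKitNeg (24.3 ± 12.5, adjusted p = 7.25e-05) and CD44LowKitPos (19.4 ± 7.24, adjusted p = 5.4e-04).

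In CD44LowKitNeg against CD44Neg, 2 of 10 tested genes of the list of lipoprotein uptake and lysosomal cholesterol rose and 1 of 5 of the list of efflux and storage fell, where 4.94% of all genes were called higher and 5.23% lower. *Mylip*, a ubiquitin ligase that degrades lipoprotein receptors, rose from 14.4 ± 6.36 to 56.8 ± 26.7 normalized CPM (log2 fold change 1.98, SE 0.34, adjusted p = 4.45e-04), a call lost in 2 of 30 alternative settings, within E10 and within E11 alone (adjusted p up to 0.198). *Lipa*, the lysosomal acid lipase, rose from 86.0 ± 35.4 to 250.04 ± 99.5 (1.55, SE 0.25, adjusted p = 2.96e-04), with all 6 libraries above all 10, as for 2.5% of all genes. Its call was lost in the same 2 settings (adjusted p up to 0.0840). *Abcg1*, a cholesterol exporter, fell from 152 ± 89.995 to 44.1 ± 23.4 (-1.78, SE 0.45, adjusted p = 0.00759), and it was also lower in CD44LowKitPos (23.5 ± 9.28, adjusted p = 0.00693). Of the fits that left out 1 library, 11 of 16 lost the call of *Abcg1* in CD44LowKitNeg and 7 of 22 that in CD44LowKitPos. *Mylip* in CD44High (8.05 ± 4.82) was lower than in CD44LowKitNeg (-2.82, SE 0.63, adjusted p = 0.00169), a call lost in 4 of 35 alternative settings, among them without CD44High replicate 20 or 21 (adjusted p up to 0.0122).

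*Apoe*, an apolipoprotein that macrophages secrete, was at 173 ± 82.4 in CD44Neg, 334 ± 109 in CD44LowKitNeg (log2 fold change 0.96, SE 0.30, adjusted p = 0.0300, not called), 845 ± 80.8 in CD44LowKitPos and 2394 ± 1437 normalized CPM in CD44High. Against CD44Neg the log2 fold change was 2.29 in CD44LowKitPos (SE 0.37, adjusted p = 3.45e-04) and 3.79 in CD44High (SE 0.37, adjusted p = 5.62e-08), and against CD44LowKitNeg it was 2.84 in CD44High (SE 0.43, adjusted p = 2.49e-05). *Scd2*, a fatty acid desaturase, fell in CD44High against CD44Neg (61.7 ± 43.3 against 154 ± 44.6, log2 fold change -1.32, SE 0.35, adjusted p = 0.00769) and against CD44LowKitNeg (-1.77, SE 0.38, adjusted p = 0.00109). The first call was lost in 11 of 35 alternative settings, among them without CD44High replicate 21 or 22 (adjusted p up to 0.0709), and the second in 3 of 35. *Scarb1*, the HDL receptor, rose from E9.5 to E11 within CD44Neg (33.2 to 104 normalized CPM, log2 fold change 1.67, SE 0.28, adjusted p = 0.00647), where 0.391% of 11250 genes were called higher. This was the only call within CD44Neg among the 53 other genes of the lists that were tested there. It was lost in 7 of 20 alternative settings, 6 of them among the 10 fits without 1 library. The summed endothelial markers (5662 to 5924 at E11 against 3519 to 4297 at E9.5) and neural markers (81.6 to 109 against 20.7 to 52.3) separated the same libraries. Their part in the rise of *Scarb1* was not tested. Of the 10 genes of the isoprenoid branch, 0 were called by edgeR in any comparison, where between 0.00806% and 16% of all genes were.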

How the data were processed

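RNA was measured by SMART-Seq2 in 22 libraries of 25 sorted cells. The authors amplified cDNA, made Nextera libraries, clipped reads with FASTX, aligned them with STAR and deposited raw counts per gene made with htseq-count; the submitters' processing notes name mm10 and FastQC. The annotation and strand setting are not given in the sources used here. From these counts, edgeR 4.0.16 (TMM, filterByExpr with a minimum count of 10 and total of 15, prior count 0.125, quasi-likelihood F test) was run in R 4.3.3 over all genes, with p-values adjusted by Benjamini-Hochberg and calls under 0.01. CD44LowKitNeg and CD44Neg were fitted over their 16 libraries, the other population comparisons over all 22, and stages and their interaction within 10, 6 and 11 libraries. Normalized CPM used the TMM sizes of the 22 libraries, and an SE is the log2 fold change divided by the root of F. Groups came from the labels. Library totals were 3912350 to 8657546 counts, and a count of 0 allows up to 3 counts, for counting error only. The ribosomal RNA gene *Rn45s* took 1.92% to 23.9% of counts. Alternatives used limma 3.58.1, DESeq2 1.42.0, other scalings, filters and thresholds, thinned counts, single stages and each library left out, and edgeR's newer dispersion, which was added after seeing the data. The scripts were tested on simulated data. The genes named are the 8 members, the genes of the pathway lists that were called, *Srebf2*, and the 5 genes most like the members. *Nsdhl*, *Hsd17b7* and *Tm7sf2* were named after their values were seen, and *Ctsb*, *Akap9*, Gm43738 and Gm48342 because they overlap members. *Cdh5*, *Cd34*, *Ptprc*, *Stmn2*, *Elavl3*, *Neurod1*, *Adgre1*, *C1qa*, *C1qb*, *C1qc*, *Lyz2* and *Rn45s* were named as checks of the libraries. The members and lists were chosen with earlier results of these data known. Some genes of the pathway are not reported here.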

Additional observations from a re-analysis of the deposited data

Results flagged for a closer look

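Of 24 groups of 4 to 10 libraries checked for a single library far from the rest, 5 had one by Dixon's criterion, where chance gives about 1 in 20. In CD44Neg as a whole, *Lss* was at 53.3 normalized CPM in replicate 8 of E10, and the next library was at 24.7. The other 4 were all replicate 7 among the 4 CD44Neg libraries of E9.5. There *Hmgcs1* was at 327 (next 125), *Idi1* at 67.2 (next 22.7), *Fdft1* at 152 (next 73.8) and *Cyp51* at 208 (next 105). This library had 7132809 counts, of which *Rn45s* took 13.2%, and its proliferation markers summed to 2476 normalized CPM. The part of these in its levels was not tested. The 4 flags come from 1 library and are not independent.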

How the results depend on the processing

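Of 2810 alternative values of single genes, 2610 kept their direction and side of the threshold, 106 lost a call, 18 gained one and 76 changed sign, 56 of these on leaving out 1 library and 0 among called results. Of the 23 called results, 7 were kept under every alternative. No paired analysis was possible because each library carries a replicate number of its own.

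Of the 8 genes, the count called in CD44LowKitNeg against CD44Neg went from 0 to 1 (*Fdps*) at an adjusted p under 0.05, with upper-quartile scaling, DESeq2's Wald test, limma voom or edgeR's newer dispersion, and ran from 0 to 1 on leaving out each library (1 without CD44LowKitNeg replicate 14). In CD44High against CD44LowKitNeg it went from 1 to 2 at 0.05 and to 0 by limma voom or with only the 2 populations compared, and ran from 0 to 1 (0 without CD44High replicate 21 or 22). In CD44High against CD44Neg it went from 4 to 1 by limma voom, 1 with stage as a covariate and 2 at E11 alone, and ran from 1 to 4. In CD44LowKitPos against CD44Neg it went from 0 to 1 (*Fdft1*) at 0.05, with DESeq2's size factors, at least 10 counts in every library, DESeq2's Wald test or the newer dispersion, and ran from 0 to 1 (1 without CD44Neg replicate 4, 5, 6 or 9 or CD44LowKitNeg replicate 15). The cause was not tested. Except for single stages, the shares of all genes called in these settings are not given here, so the counts have no background beside them.

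All log2 fold changes that changed sign were uncalled. At E11 alone *Hmgcs1* was at -0.59 and *Idi1* at -0.081 in CD44LowKitNeg against CD44Neg, and *Idi1* at -0.092 in CD44High against CD44Neg (-0.030 with upper-quartile scaling, -0.045 with counts thinned to the smallest library). In CD44LowKitPos against CD44LowKitNeg *Fdps* was at -0.032 with at least 10 counts and -0.068 at E10 alone, and *Idi1* at -0.15 at E10 alone. In CD44High against CD44LowKitPos *Insig1* was at -0.024 with upper-quartile scaling, -0.020 without filter, -0.011 with the newer dispersion, -0.0470 thinned and -0.0492 with only the 2 populations, and *Lss* at 0.86 with stage as a covariate and 0.024 thinned. In E10 against E9.5 *Hmgcs1* was at -0.0065 without filter and -0.010 with the newer dispersion, and *Idi1* at -0.11 by limma voom. The interaction of *Insig1* was 0.0144 with upper-quartile scaling and 0.010 with at least 10 counts.

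On leaving out each library, the log2 fold change in CD44LowKitPos against CD44LowKitNeg ran from -0.25 to 0.45 for *Cyp51*, -0.10 to 0.39 for *Fdps* and -0.37 to 0.61 for *Idi1*. In CD44High against CD44LowKitPos it ran from -0.22 to 0.093 for *Fdft1*, -0.34 to 0.44 for *Insig1*, -0.99 to 0.22 for *Lss* and -0.23 to 0.39 for *Sqle*. In CD44High against CD44LowKitNeg it ran from -0.43 to 0.78 for *Lss* and -0.54 to 0.076 for *Sqle*, and against CD44Neg from -0.83 to 0.30 for *Idi1*. In E10 against E9.5 it ran from -0.39 to 0.10 for *Cyp51*, -0.43 to 0.0014 for *Fdps*, -0.17 to 0.61 for *Hmgcs1*, -0.26 to 0.77 for *Idi1* and -0.018 to 1.58 for *Lss*, and in E11 against E9.5 from -0.27 to 0.066 for *Fdps* and -0.11 to 0.82 for *Idi1*. Between stages of CD44LowKitNeg it ran from -0.79 to 0.052 for *Sqle*, and the interaction from -0.014 to 0.44 for *Fdft1* and -0.55 to 0.41 for *Insig1*.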
